A study of Homo sapiens with 6 samples.

Results

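The genes described here build and copy the replication fork. They are 37 genes, chosen by name, that encode the sliding clamp and its loaders, the replicative polymerases with primase, the enzymes that finish Okazaki fragments, the single-strand binding protein RPA, the chaperones that assemble new nucleosomes, and factors that couple, protect or check the fork. Each gene was represented by the probe set that carries its symbol alone and has the highest mean signal. All 37 genes were measured, out of 18417 genes on the arrays, and CLSPN alone had 2 such probe sets.

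The data are 6 expression arrays, from 3 related human lines grown as 2 biological replicates each. BJELM cells derive from BJEL cells by retroviral transfer of MYC fused to an estrogen receptor domain (MYC-ER), and were grown with G-418, hygromycin and puromycin and continuously with 4-hydroxytamoxifen, which switches the fusion protein on. BJEL cells derive from BJ cells, carry the catalytic subunit of telomerase (hTERT) and the SV40 early region, which encodes the large T and small t antigens, and were grown with G-418 and hygromycin. BJ cells are primary human foreskin fibroblasts grown without these agents. BJELM cells thus carry hTERT and the SV40 early region as well, and what a selection drug or 4-hydroxytamoxifen does cannot be told apart from what the introduced genes do. Whether a derived line is 1 clone or a pool is not given in the sources used here. Values are log2 probe set signals, differences are log2 fold changes ± SE from limma, and a gene is said to have risen or fallen where the Benjamini-Hochberg adjusted p over all genes was under 0.05 and the change at least 2-fold.

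At a fork the helicase unwinds the DNA, RPA covers the single strands, and polymerase alpha with primase lays down short primers. Replication factor C (RFC) then loads the ring-shaped clamp PCNA, which holds polymerase delta on the lagging strand, while polymerase epsilon copies the leading strand. Behind the fork the Okazaki fragments are trimmed and sealed, and histone chaperones set new nucleosomes on the daughter strands. Many of these genes are transcribed around the entry into S phase under E2F factors, which the RB protein holds in check, and the large T antigen binds RB. In a culture, more cells in S phase and more RNA per cell cannot be told apart on an array of bulk RNA.

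Before the fork genes are described, the labels were checked. TERT had signals of 10.84 and 10.78 on the arrays labelled BJELM and 10.71 and 10.97 in BJEL, against 7.77 and 7.88 in BJ. MYC had signals of 9.57 and 8.90 on the arrays labelled BJELM, 10.22 and 10.12 in BJEL, and 9.47 and 9.61 in BJ. The label BJELM thus did not go with a higher MYC signal (-0.93 against BJEL, adjusted p = 0.0444). Comparisons that use the label compare arrays carrying it. The paper describes overexpressed MYC-ER protein in BJELM cells by western blot. It also names an RT-qPCR check of expression of the introduced MYC and TERT genes, whose values are not in the sources used here. Its list of transcription factors gives MYC expression as lower in BJELM than in BJ. Whether the blot, the RT-qPCR and the arrays used the same cultures is not given in those sources. Of 12 fibroblast markers, 8 lay at or above the median gene level of 7.26 on the arrays labelled BJELM, 8 in BJEL and 12 in BJ, with PDGFRA, FAP, DCN and S100A4 below it in both derived lines. Of 7 epithelial markers 3 lay at or above it in every line, with EPCAM, CDH1, KRT5 and KRT14 below. None of the 5 endothelial, 4 measured leukocyte and 3 measured melanocyte markers reached it in any line. Medians over all probe sets lay between 6.37 and 6.46 on the 6 arrays.

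The promoters of the fork genes were searched for the words that E2F factors bind, because E2F is the textbook regulator of this group. RefSeq promoters (GRCh38.p14, 250 bases before to 50 bases after a gene's start) were at hand for 31 of the 37 genes and not for POLD3, RPA2, RPA3, DNA2, DSCC1 and ATAD5. The 8-letter words TTTCCCGC, TTTCGCGC, TTTGCCGC and TTTGGCGC, read on both strands, stood in a promoter of 11 of the 31 genes (35.5%), against 5.51% of 14237 tested genes with a promoter. The 7-letter words that remain when the first T is dropped, and which every 8-letter word contains, stood in 22 of the 31 (71.0%), against 21.0% of tested genes. The E-box CACGTG, the word of MYC, stood in 5 of the 31 (16.1%), against 10.9%, and the NF-Y word CCAAT in 18 (58.1%), against 42.2%. A match is a description of these letters and not a bound site.

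**Figure D1:**
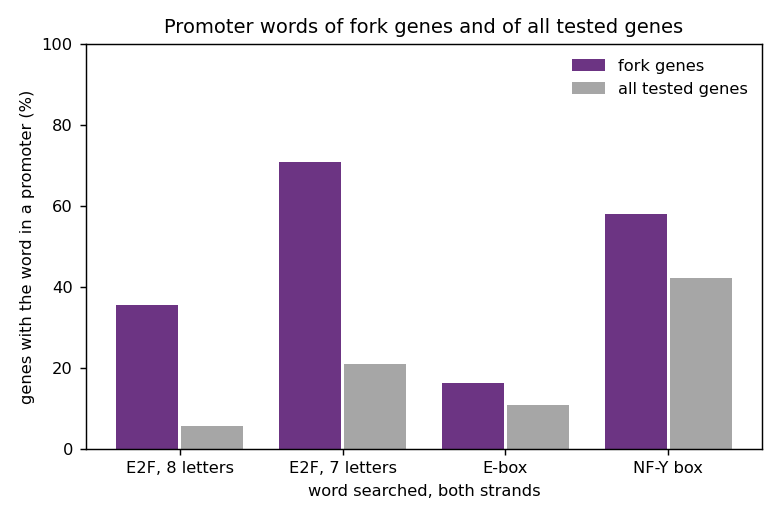
Share of genes (vertical axis, percent) with a word in a RefSeq promoter of 300 bases, for the 31 fork genes with a promoter (purple) and all 14237 tested genes with one (gray), for 4 words (horizontal axis). The 8-letter E2F words stand at 35.5% of fork genes against 5.51% of tested genes, and the E-box at 16.1% against 10.9%.

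The last 130 bases before and the first 10 bases from the start are shown for the 5 genes with an 8-letter word that had the largest difference in BJEL against BJ, and for the 2 genes with the smallest difference. Capitals mark the 8-letter E2F words and CCAAT boxes on either strand, and each run is written 5′ to 3′ on the strand of the gene.
CLSPN (chr1:35769969-35770108, minus strand): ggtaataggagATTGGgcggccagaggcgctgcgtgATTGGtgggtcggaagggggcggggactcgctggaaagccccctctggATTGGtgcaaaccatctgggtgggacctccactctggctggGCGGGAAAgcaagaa
RFC3 (chr13:33818019-33818158, plus strand): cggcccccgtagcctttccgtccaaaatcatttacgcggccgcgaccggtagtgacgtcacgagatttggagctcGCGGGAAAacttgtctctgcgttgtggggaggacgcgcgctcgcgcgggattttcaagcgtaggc
POLE2 (chr14:49688205-49688344, minus strand): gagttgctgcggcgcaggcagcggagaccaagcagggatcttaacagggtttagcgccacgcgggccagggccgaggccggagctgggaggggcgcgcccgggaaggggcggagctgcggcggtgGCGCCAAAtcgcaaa
TIPIN (chr15:66356676-66356815, minus strand): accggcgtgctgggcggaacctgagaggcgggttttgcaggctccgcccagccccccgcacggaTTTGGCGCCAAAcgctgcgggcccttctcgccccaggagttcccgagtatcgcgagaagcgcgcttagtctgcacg
POLA2 (chr11:65261832-65261971, plus strand): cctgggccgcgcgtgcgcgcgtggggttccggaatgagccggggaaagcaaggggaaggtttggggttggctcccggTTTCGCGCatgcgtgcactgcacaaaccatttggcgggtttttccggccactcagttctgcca
POLE4 (chr2:74958513-74958652, plus strand): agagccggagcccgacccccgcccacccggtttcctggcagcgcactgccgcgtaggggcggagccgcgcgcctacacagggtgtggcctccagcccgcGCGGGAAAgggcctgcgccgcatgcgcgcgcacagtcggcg
POLD2 (chr7:44123539-44123678, minus strand): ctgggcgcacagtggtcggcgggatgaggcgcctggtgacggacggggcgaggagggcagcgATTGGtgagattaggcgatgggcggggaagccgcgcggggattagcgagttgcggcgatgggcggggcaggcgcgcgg

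In CLSPN and POLE2 the E2F word begins 5 bases before the start, and in CLSPN 3 CCAAT boxes lie upstream of it. In TIPIN the words TTTGGCGC and GCGCCAAA overlap in a palindrome. POLE4 holds the same word GCGGGAAA as RFC3 and CLSPN, 31 bases before the start, while its difference in BJEL against BJ was -0.12, against 1.77 for RFC3 and 1.97 for CLSPN. POLD2 holds a CCAAT box and none of the 8-letter words in this window. Over the 11 genes with an 8-letter word the differences in BJEL against BJ ran from -0.12 to 1.97, with a median of 1.30. Over the 20 genes without one they ran from -1.27 to 1.83, with a median of 1.17, so the ranges overlapped. Those 20 include genes with a 7-letter word, among them RFC4, PRIM1, CHAF1B and WDHD1. They also include genes with neither word, among them POLD4, POLD2 and MCM10. A split by 7-letter words was not made.

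The comparison of BJEL with BJ covers the step at which hTERT and the SV40 early region were added. In BJEL the signals of polymerases, clamp loaders, chromatin assembly factors and fork protection factors lay above those in BJ, most by 2- to 4-fold. Of the 37 genes 25 rose, where 2.89% of all tested genes rose, and POLD4 alone fell, where 2.29% of tested genes fell. With no fold minimum 31 were higher at an adjusted p under 0.05, where 10.4% of tested genes were, and 1 was lower, where 7.13% were. Both BJEL arrays lay above both BJ arrays for 35 genes, against 29.2% of tested genes. The exceptions were POLE4, whose arrays overlapped, and POLD4, whose BJEL arrays lay wholly below BJ, as for 32.0% of tested genes. The median difference was 1.19, beside a median of -0.018 over all tested genes. The called genes numbered 26, and 22 to 27 when arrays were left out singly. The median signal of the 37 genes was 9.56 and 9.57 on the BJEL arrays, against 8.0 and 8.3 on the BJ arrays.

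**Figure D2:**
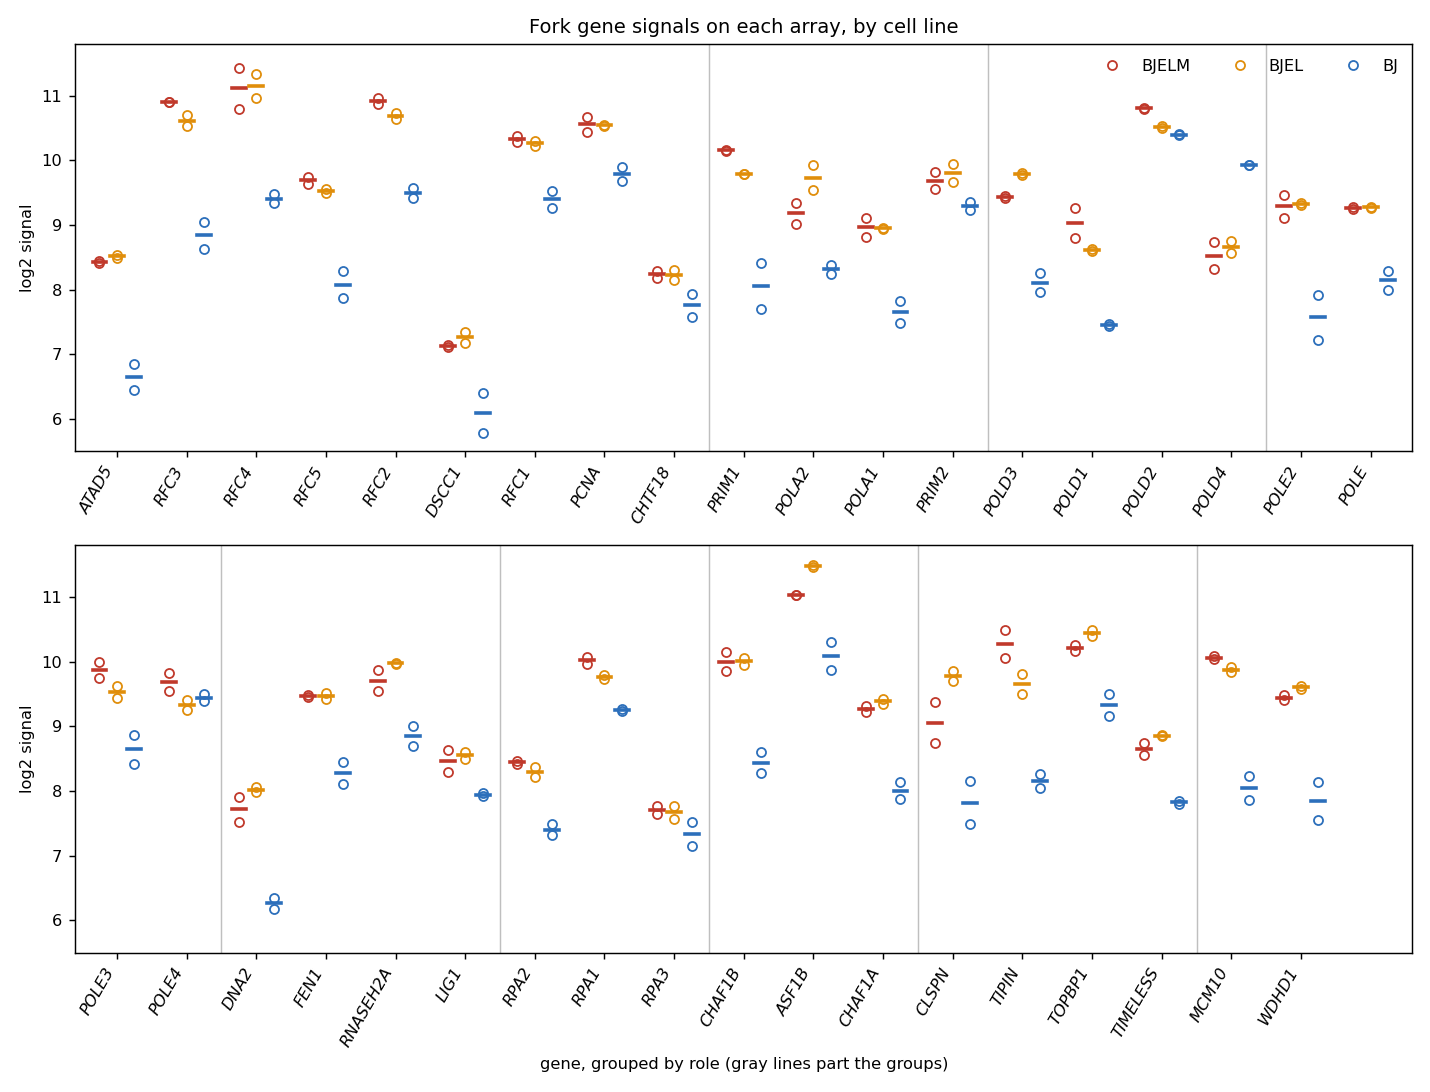
Log2 signal (vertical axis) of each of the 37 fork genes (horizontal axis, grouped by role) on each array, with an open circle for an array, a bar for the mean of a line (n = 2), and colors for BJELM (red), BJEL (orange) and BJ (blue). Red and orange lie above blue for nearly every gene, POLD4 is the reverse, with 8.52 on the arrays labelled BJELM and 8.66 in BJEL against 9.92 in BJ, and signals of different genes are not comparable.

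The clamp PCNA, a ring that tethers polymerases and many repair proteins to DNA, did not reach the fold minimum. Its signal was 10.44 and 10.67 on the arrays labelled BJELM and 10.53 and 10.55 in BJEL, against 9.67 and 9.90 in BJ. The difference was 0.76 ± 0.12 in BJEL (adjusted p = 0.00962) and 0.77 ± 0.12 on the arrays labelled BJELM (adjusted p = 0.00504), each against BJ, or 1.69-fold and 1.71-fold. The 2 lines derived from BJ overlapped in PCNA, and neither overlapped BJ. RFC1, the large subunit of the loader and the one found in no other loader, was likewise under the fold minimum, with 0.87 ± 0.11 in BJEL (adjusted p = 0.00487) and 0.94 ± 0.11 on the arrays labelled BJELM (adjusted p = 0.00207). It stood past that minimum on the arrays labelled BJELM without BJ replicate 2 (1.07, adjusted p = 0.00536).

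The small RFC subunits, which the alternative clamp loaders share, all rose in both lines. RFC3 had signals of 10.91 and 10.90 on the arrays labelled BJELM and 10.70 and 10.53 in BJEL, against 8.64 and 9.04 in BJ. It rose in BJEL by 1.77 ± 0.15 (adjusted p = 0.00137) and on the arrays labelled BJELM by 2.06 ± 0.15 (adjusted p = 0.000437). The lines stood in the order of arrays labelled BJELM, BJEL and BJ without overlap, though only the steps from BJ passed the test. RFC4 rose by 1.75 ± 0.23 in BJEL and by 1.71 ± 0.23 on the arrays labelled BJELM, RFC5 by 1.45 ± 0.15 and 1.61 ± 0.15, and RFC2 by 1.19 ± 0.097 and 1.43 ± 0.097 in the same order, with adjusted p between 0.000367 and 0.00466. RFC4 had the widest gap between replicates of these, at 11.42 and 10.80 on the arrays labelled BJELM and 11.34 and 10.97 in BJEL, against 9.48 and 9.34 in BJ.

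The alternative loaders differed among themselves. ATAD5, whose complex takes PCNA off the DNA, had signals of 8.44 and 8.42 on the arrays labelled BJELM and 8.50 and 8.54 in BJEL, against 6.44 and 6.85 in BJ. ATAD5 rose in BJEL by 1.87 ± 0.14 (adjusted p = 0.00108), or 3.66-fold. CHTF18, the large subunit of the loader that serves sister chromatid cohesion, did not pass, with 0.46 ± 0.14 in BJEL (adjusted p = 0.0765) and 0.48 ± 0.14 on the arrays labelled BJELM (adjusted p = 0.0508). Its partner DSCC1 had signals of 7.11 and 7.15 on the arrays labelled BJELM and 7.18 and 7.35 in BJEL, against 5.79 and 6.40 in BJ. DSCC1 rose by 1.17 ± 0.20 in BJEL (adjusted p = 0.0121), a call that rested on several arrays. Its difference was 0.86 when BJ replicate 1 was left out (adjusted p = 0.0239), 1.25 when BJEL replicate 1 was (adjusted p = 0.058) and 1.09 when BJEL replicate 2 was (adjusted p = 0.0661). Under the label BJELM, DSCC1 rose by 1.03 ± 0.20 (adjusted p = 0.0112), and without BJ replicate 1 stood at 0.72 (adjusted p = 0.0208).

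Polymerase alpha and primase start every new strand. PRIM1, the catalytic primase subunit, had signals of 10.17 and 10.14 on the arrays labelled BJELM and 9.79 and 9.80 in BJEL, against 7.71 and 8.42 in BJ. PRIM1 rose in BJEL by 1.73 ± 0.22 (adjusted p = 0.00432) and on the arrays labelled BJELM by 2.09 ± 0.22 (adjusted p = 0.00128). PRIM2, the large primase subunit, did not pass in either line, with 9.82 and 9.55 on the arrays labelled BJELM and 9.95 and 9.67 in BJEL, against 9.36 and 9.24 in BJ, and a difference in BJEL of 0.51 ± 0.14 (adjusted p = 0.056). The catalytic subunit POLA1 rose in BJEL by 1.30 ± 0.15 (adjusted p = 0.00352) and on the arrays labelled BJELM by 1.31 ± 0.15 (adjusted p = 0.00182). POLA2, the regulatory subunit, had signals of 9.35 and 9.02 on the arrays labelled BJELM and 9.92 and 9.54 in BJEL, against 8.25 and 8.38 in BJ. It rose in BJEL by 1.42 ± 0.17 (adjusted p = 0.00363), while on the arrays labelled BJELM the difference of 0.87 ± 0.17 (adjusted p = 0.0116) was under the fold minimum, which it passed without BJELM replicate 2 (1.03, adjusted p = 0.0153). The 4 genes of this complex thus ranged from 0.51 to 1.73 in BJEL against BJ.

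The subunits of polymerase delta, the lagging strand enzyme, moved apart. POLD3, which binds PCNA, had signals of 9.42 and 9.45 on the arrays labelled BJELM and 9.78 and 9.81 in BJEL, against 7.96 and 8.26 in BJ. POLD3 rose in BJEL by 1.68 ± 0.12 (adjusted p = 0.000902) and on the arrays labelled BJELM by 1.33 ± 0.12 (adjusted p = 0.000749). The catalytic subunit POLD1 had signals of 9.27 and 8.79 on the arrays labelled BJELM and 8.64 and 8.60 in BJEL, against 7.47 and 7.44 in BJ. POLD1 rose in BJEL by 1.16 ± 0.16 (adjusted p = 0.00557) and on the arrays labelled BJELM by 1.58 ± 0.16 (adjusted p = 0.00112).

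POLD2, the subunit that joins POLD1 to POLD3, lay close together on all arrays, at 10.82 and 10.79 on the arrays labelled BJELM and 10.50 and 10.53 in BJEL, against 10.39 and 10.40 in BJ. Its difference of 0.12 ± 0.078 in BJEL did not pass (adjusted p = 0.363), with a 95% interval from -0.07 to 0.31, so a 2-fold change lies outside the interval. On the arrays labelled BJELM it stood 0.41 ± 0.078 above BJ (adjusted p = 0.0108), under the fold minimum. POLD4, the smallest subunit, was the exception of the whole group. Its signal was 8.73 and 8.31 on the arrays labelled BJELM and 8.56 and 8.75 in BJEL, against 9.92 and 9.92 in BJ, so that every array of the derived lines lay below both BJ arrays. POLD4 changed by -1.27 ± 0.15 in BJEL (adjusted p = 0.00377) and by -1.40 ± 0.15 on the arrays labelled BJELM (adjusted p = 0.00149), or 2.41-fold and 2.64-fold lower. It kept both calls with each array left out in turn.

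Polymerase epsilon, the leading strand enzyme, showed the same kind of spread. POLE2, the second largest subunit, had signals of 9.11 and 9.46 on the arrays labelled BJELM and 9.31 and 9.33 in BJEL, against 7.23 and 7.92 in BJ. POLE2 rose in BJEL by 1.75 ± 0.23 (adjusted p = 0.00539) and on the arrays labelled BJELM by 1.71 ± 0.23 (adjusted p = 0.00323). The catalytic subunit POLE rose in BJEL by 1.13 ± 0.11 (adjusted p = 0.00217) and on the arrays labelled BJELM by 1.12 ± 0.11 (adjusted p = 0.00112), calls that fell under the fold minimum without BJ replicate 1 (0.99, adjusted p = 0.0126, and 0.98, adjusted p = 0.00703).

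The histone-fold subunits POLE3 and POLE4, which form a dimer on polymerase epsilon, differed from each other. POLE3 had signals of 9.75 and 9.99 on the arrays labelled BJELM and 9.44 and 9.63 in BJEL, against 8.41 and 8.87 in BJ, with 0.89 ± 0.18 in BJEL (adjusted p = 0.0196), under the fold minimum, and a rise of 1.23 ± 0.18 on the arrays labelled BJELM (adjusted p = 0.00374). Its call moved with the BJ arrays, being gained in BJEL without BJ replicate 2 (1.12, adjusted p = 0.0164) and lost on the arrays labelled BJELM without BJ replicate 1 (1.00, adjusted p = 0.0163, just under the fold minimum). POLE4 had signals of 9.55 and 9.83 on the arrays labelled BJELM and 9.26 and 9.40 in BJEL, against 9.39 and 9.49 in BJ, so that BJEL and BJ overlapped. Its differences were -0.12 ± 0.12 in BJEL (adjusted p = 0.592; 95% interval from -0.41 to 0.18) and 0.25 ± 0.12 on the arrays labelled BJELM (adjusted p = 0.21).

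**Figure D3:**
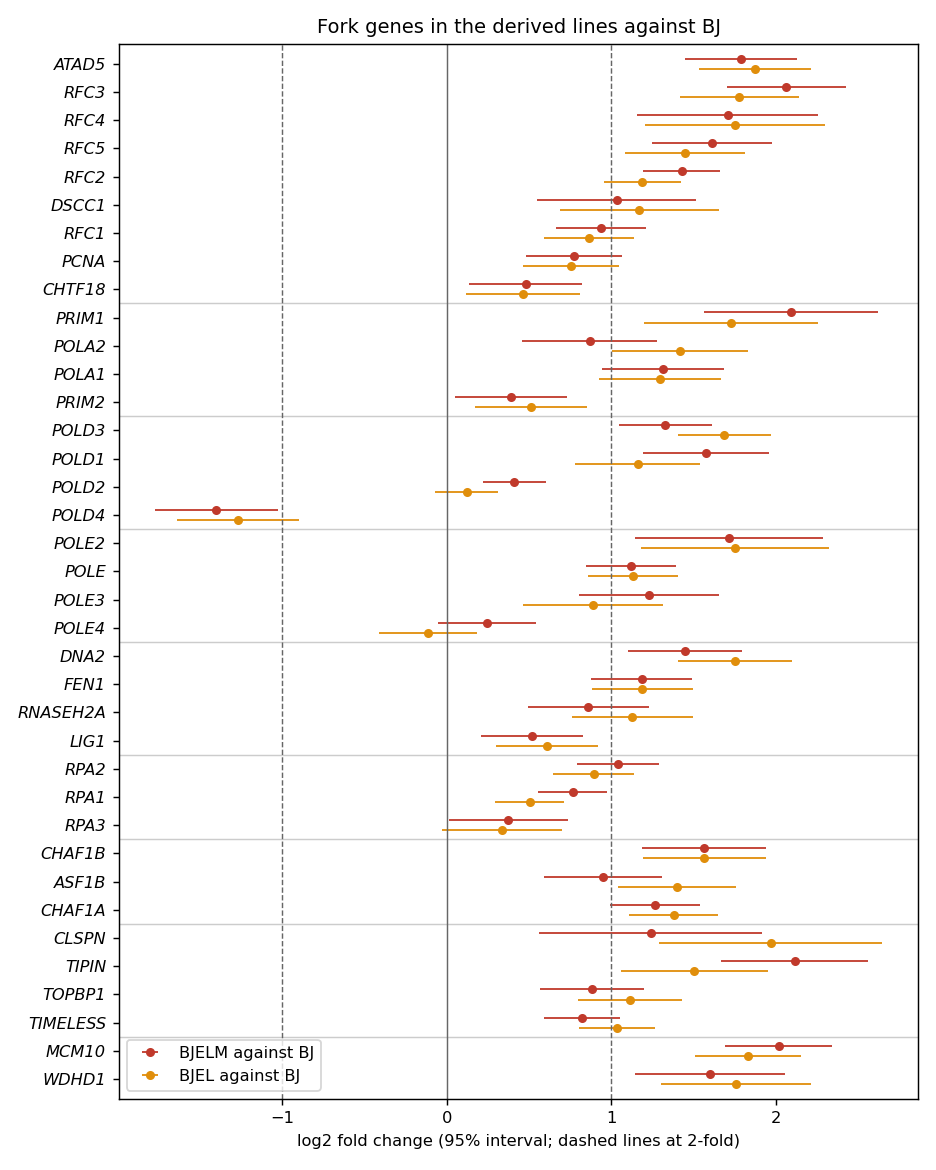
Log2 fold changes (horizontal axis) of the 37 fork genes (vertical axis, grouped by role with gray lines between groups) on the arrays labelled BJELM (red) and in BJEL (orange), each against BJ, where points are limma estimates and bars 95% intervals from 2 arrays per line. Most points lie between 0.5 and 2, and POLD4 lies at -1.40 and -1.27. POLD2 and POLE4 lie near 0 in BJEL (0.12 and -0.12), with 0.41 and 0.25 on the arrays labelled BJELM.

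Okazaki fragments are finished by nucleases and a ligase. DNA2, a nuclease and helicase that trims long flaps, had signals of 7.90 and 7.53 on the arrays labelled BJELM and 8.06 and 7.98 in BJEL, against 6.18 and 6.35 in BJ. DNA2 rose in BJEL by 1.75 ± 0.14 (adjusted p = 0.00129) and on the arrays labelled BJELM by 1.45 ± 0.14 (adjusted p = 0.00108). The flap endonuclease FEN1, with signals of 9.45 and 9.48 on the arrays labelled BJELM and 9.52 and 9.41 in BJEL, against 8.11 and 8.44 in BJ, rose in BJEL by 1.19 ± 0.13 (adjusted p = 0.00264), with 1.18 ± 0.13 on the arrays labelled BJELM (adjusted p = 0.00139). RNASEH2A, the catalytic subunit of the enzyme that cuts RNA out of DNA, rose in BJEL by 1.13 ± 0.15 (adjusted p = 0.00541), but by 0.97 when BJ replicate 1 was left out (adjusted p = 0.0344), which misses the fold minimum. RNASEH2A on the arrays labelled BJELM stood at 0.86 ± 0.15 (adjusted p = 0.00807), and past the fold minimum without BJ replicate 2 (1.02, adjusted p = 0.014) or BJELM replicate 2 (1.02, adjusted p = 0.0101). LIG1, the ligase that seals the fragments, was under the fold minimum in both lines, at 0.61 ± 0.13 in BJEL (adjusted p = 0.0241) and 0.52 ± 0.13 on the arrays labelled BJELM (adjusted p = 0.0272). The nucleases thus stood above the ligase in both comparisons with BJ, a difference that was not tested.

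Replication protein A, the trimer that coats single-stranded DNA at forks and in repair, had no subunit that rose in BJEL, while 2 of 3 had an adjusted p under 0.05. RPA2 had signals of 8.46 and 8.42 on the arrays labelled BJELM and 8.37 and 8.22 in BJEL, against 7.31 and 7.48 in BJ, with 0.89 ± 0.10 in BJEL (adjusted p = 0.00329). It rose by 1.04 ± 0.10 on the arrays labelled BJELM (adjusted p = 0.00107), or 0.96 without BJ replicate 1 (adjusted p = 0.00997), which is under the fold minimum. RPA1, the large subunit, stood at 0.50 ± 0.086 in BJEL (adjusted p = 0.0124) and 0.76 ± 0.086 on the arrays labelled BJELM (adjusted p = 0.00163). RPA3 did not pass in either, with 7.65 and 7.77 on the arrays labelled BJELM and 7.57 and 7.77 in BJEL, against 7.53 and 7.14 in BJ, and a difference in BJEL of 0.34 ± 0.15 (adjusted p = 0.193).

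All 3 chromatin assembly genes rose in BJEL. CHAF1B, the middle subunit of the assembly factor CAF-1 that PCNA recruits, had signals of 10.15 and 9.85 on the arrays labelled BJELM and 10.06 and 9.94 in BJEL, against 8.27 and 8.60 in BJ. CHAF1B rose in BJEL by 1.56 ± 0.15 (adjusted p = 0.00215) and on the arrays labelled BJELM by 1.56 ± 0.15 (adjusted p = 0.00109). CHAF1A, its large subunit, rose in BJEL by 1.38 ± 0.11 (adjusted p = 0.00129), with 1.27 ± 0.11 on the arrays labelled BJELM (adjusted p = 0.000754). ASF1B, which hands histones H3 and H4 to that factor, had signals of 11.04 and 11.03 on the arrays labelled BJELM and 11.49 and 11.47 in BJEL, against 9.86 and 10.30 in BJ. ASF1B rose in BJEL by 1.40 ± 0.15 (adjusted p = 0.00255) and stood at 0.95 ± 0.15 on the arrays labelled BJELM (adjusted p = 0.00501), which passed the fold minimum without BJ replicate 2 (1.17, adjusted p = 0.00357).

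The 4 factors that protect or check the fork also rose in BJEL. CLSPN, the adaptor through which ATR activates the kinase CHK1, had signals of 8.74 and 9.37 on the arrays labelled BJELM and 9.71 and 9.86 in BJEL, against 7.48 and 8.15 in BJ. Its rise of 1.97 ± 0.28 in BJEL (adjusted p = 0.00642), or 3.91-fold, was the largest of the 37 genes with all arrays and this probe set. RFC4 stood above CLSPN when BJ replicate 1 (1.82 for RFC4, 1.63 for CLSPN) or BJEL replicate 2 (1.94 for RFC4, 1.89 for CLSPN) was left out, and the other CLSPN probe set (1.52) stood below ATAD5 (1.87). On the arrays labelled BJELM it rose by 1.24 ± 0.28 (adjusted p = 0.0196), but the call did not hold when BJ replicate 1 (0.90, adjusted p = 0.0881) or BJELM replicate 2 (0.92, adjusted p = 0.071) was left out, nor for the other CLSPN probe set (0.88, adjusted p = 0.0232). That probe set had 8.06 and 8.03 on the arrays labelled BJELM and 8.75 and 8.61 in BJEL, against 6.83 and 7.49 in BJ, and thus kept the order of the lines.

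TIPIN and TIMELESS form the complex that keeps helicase and polymerases together. TIPIN had signals of 10.05 and 10.49 on the arrays labelled BJELM and 9.50 and 9.81 in BJEL, against 8.04 and 8.27 in BJ. It rose in BJEL by 1.50 ± 0.18 (adjusted p = 0.00391) and on the arrays labelled BJELM by 2.11 ± 0.18 (adjusted p = 0.000739), or 4.33-fold. TIMELESS rose by 1.04 ± 0.095 in BJEL (adjusted p = 0.00172), under the fold minimum after quantile normalization over genes (0.96), and stood at 0.82 ± 0.095 on the arrays labelled BJELM (adjusted p = 0.00175). TOPBP1, which activates ATR and also serves origin firing, rose in BJEL by 1.11 ± 0.13 (adjusted p = 0.00343), but the difference was 0.94 when BJ replicate 1 was left out (adjusted p = 0.0169). TOPBP1 on the arrays labelled BJELM stood at 0.88 ± 0.13 (adjusted p = 0.00417), and past the fold minimum without BJ replicate 2 (1.05, adjusted p = 0.00559).

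The factors that join the helicase to the polymerases were among the largest rises. MCM10, which activates the helicase, had signals of 10.08 and 10.04 on the arrays labelled BJELM and 9.92 and 9.83 in BJEL, against 7.86 and 8.23 in BJ. MCM10 rose in BJEL by 1.83 ± 0.13 (adjusted p = 0.001) and on the arrays labelled BJELM by 2.02 ± 0.13 (adjusted p = 0.000347). WDHD1, a hub that ties polymerase alpha to the helicase, had signals of 9.40 and 9.49 on the arrays labelled BJELM and 9.63 and 9.57 in BJEL, against 7.55 and 8.14 in BJ. WDHD1 rose in BJEL by 1.76 ± 0.19 (adjusted p = 0.00266) and on the arrays labelled BJELM by 1.60 ± 0.19 (adjusted p = 0.00187).

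The comparison of the arrays labelled BJELM with BJEL covers the step at which MYC-ER was added. None of the 37 genes rose or fell, where 0.923% of tested genes rose and 1.76% fell. By limma 0 had an adjusted p under 0.05, against 10.8% of tested genes, 10 had an unadjusted p under 0.05 (27.0%, against 25.4% of tested genes), and the methods' t-test called 0. Arrays of the same replicate number deviated together, and with that number as a block 10 of the 37 (6 higher, 4 lower) had an adjusted p under 0.05, against 24.3% of tested genes, all short of 2-fold. These were TIPIN, POLD1, POLE4, POLE3, POLD2 and RPA1 above BJEL, and CLSPN, POLA2, ASF1B and POLD3 below it. The differences ran from -0.73 to 0.61 with a median of -0.0044, beside 0.029 over all tested genes, and 17 genes lay above 0 (45.9%, against 56.4% of tested genes) and 20 below. The arrays labelled BJELM lay wholly above BJEL for 12 genes, against 28.8% of tested genes, and wholly below for 12, against 24.0%. The 95% intervals were 0.35 to either side at the median, and for 35 of the 37 genes they held no change of 2-fold or more. The exceptions were CLSPN, with an interval from -1.41 to -0.05, and TIPIN, from 0.16 to 1.06.

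The 10 genes with an unadjusted p under 0.05 were split in direction. On the arrays labelled BJELM the fork protection subunit TIPIN stood at 0.61 ± 0.18 (adjusted p = 0.0945), POLD1 at 0.42 ± 0.16 (adjusted p = 0.164), POLE4 at 0.36 ± 0.12 (adjusted p = 0.127), POLD2 at 0.29 ± 0.078 (adjusted p = 0.0724), RPA1 at 0.26 ± 0.086 (adjusted p = 0.119) and RFC2 at 0.24 ± 0.097 (adjusted p = 0.192), each against BJEL. Below BJEL were CLSPN at -0.73 ± 0.28 (adjusted p = 0.17), POLA2 at -0.55 ± 0.17 (adjusted p = 0.0995), ASF1B at -0.45 ± 0.15 (adjusted p = 0.119) and POLD3 at -0.36 ± 0.12 (adjusted p = 0.114). By role, all 3 RPA subunits lay above 0, the 4 Okazaki fragment genes and 3 chromatin assembly genes lay below 0, and none of these passed without the block. Among them RPA3 (0.039), FEN1 (-0.0044) and CHAF1B (-0.002) lay so near 0 that their signs give no direction. TIPIN and TIMELESS, which act as 1 complex, stood on opposite sides, at 0.61 and -0.21, though TIMELESS had an adjusted p of 0.229.

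**Figure D4:**
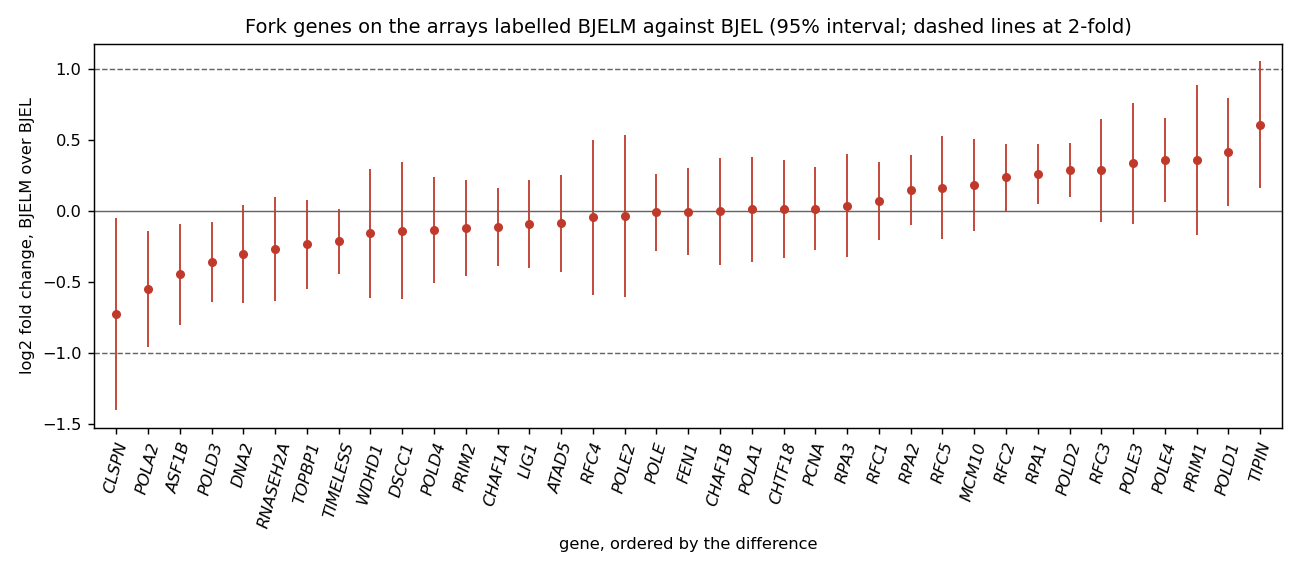
Log2 fold change of the arrays labelled BJELM over BJEL (vertical axis) for the 37 fork genes ordered by that difference (horizontal axis), where points are limma estimates and bars 95% intervals from 2 arrays per line. All points lie between -0.73 and 0.61, inside the dashed 2-fold lines, and only the intervals of CLSPN and TIPIN cross such a line.

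The comparison of the arrays labelled BJELM with BJ spans both steps and shares its arrays with the other comparisons. Here 22 of the 37 genes rose, where 4.09% of tested genes rose, and POLD4 alone fell, where 4.70% fell. With no fold minimum 32 were higher at an adjusted p under 0.05, where 15.1% of tested genes were, and 1 was lower, where 13.1% were. The arrays did not overlap for any gene, being wholly above BJ for 36, against 31.7% of tested genes, and wholly below for POLD4, against 28.8%. The median difference was 1.18, beside 0.011 over all tested genes. In all, 20 genes rose in both lines against BJ, in comparisons that share the BJ arrays. The share of tested genes that rose in both was not counted, and cannot exceed the 2.89% that rose in BJEL. POLA2, ASF1B, TIMELESS, RNASEH2A and TOPBP1 passed in BJEL only and POLE3 and RPA2 on the arrays labelled BJELM only, but none of these 7 differed between the lines by 2-fold. At an adjusted p under 0.05, 0 of the 7 differed without the replicate block and POLA2, ASF1B and POLE3 did with it. PCNA, RFC1, PRIM2, POLD2, POLE4, LIG1, RPA1, RPA3 and CHTF18 did not pass in either. The called genes numbered 23, and 18 without BJ replicate 1 or 27 without BJ replicate 2.

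The BJ arrays carried most of the spread between replicates. BJ replicate 1 lay below BJ replicate 2 for 31 of the 37 genes, against 41.7% of tested genes, with a median gap of -0.28 (replicate 1 minus replicate 2), beside 0.032 over all tested genes. The corresponding median gaps were 0.025 on the arrays labelled BJELM and 0.021 in BJEL, with replicate 1 the lower for 15 and 18 genes. PRIM1 had the widest gap in BJ, at 7.71 and 8.42, followed by POLE2 and CLSPN. For PRIM1, POLE2 and CLSPN each rise was larger without BJ replicate 2 and smaller without BJ replicate 1, which follows from their gaps. Over the 37 genes the median difference in BJEL against BJ was 1.11 without BJ replicate 1 and 1.35 without BJ replicate 2. What set the BJ arrays apart was not tested.

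**Figure D5:**
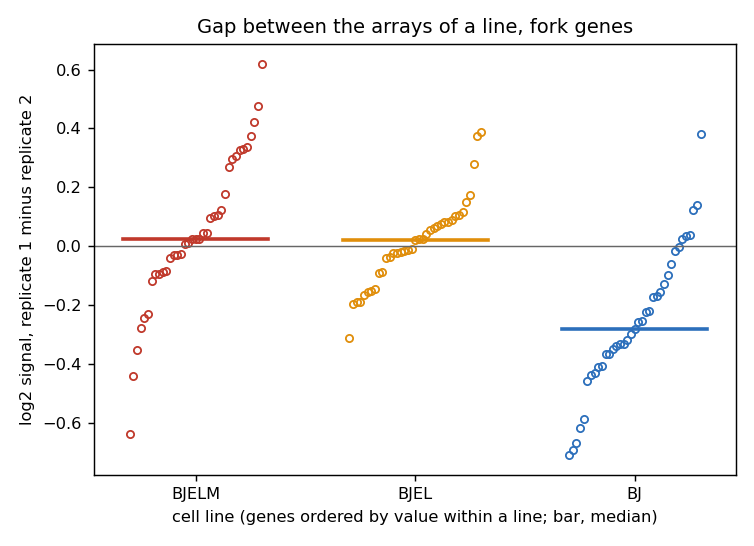
Difference in log2 signal between replicate 1 and replicate 2 (vertical axis) for each of the 37 fork genes (open circles, ordered by value) within BJELM, BJEL and BJ (horizontal axis), where bars are medians. The BJ genes lie mostly below 0, with a median of -0.28, and those of the other lines lie on both sides of it.

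Other genes of DNA replication and repair were counted beside the fork genes. Of the 11 genes of the replicative helicase (MCM2 to MCM7, CDC45 and the GINS subunits), 10 rose in BJEL (median 1.43), and all 11 on the arrays labelled BJELM (median 1.40), each against BJ. GINS3 rose by 1.99 ± 0.14 in BJEL (adjusted p = 0.000877) and GINS1 by 1.87 ± 0.15 (adjusted p = 0.00132), and GINS4 (1.03 ± 0.29, adjusted p = 0.0587) was the gene that did not pass in BJEL. Of 17 measured genes of other fork and chromatin factors, 3 rose in BJEL, with a median of 0.77, among them the cohesin acetyltransferase ESCO2 (1.38 ± 0.17, adjusted p = 0.00367) and the histone chaperone NASP (1.18 ± 0.12, adjusted p = 0.00234). With no fold minimum, 12 of the 17 were higher in BJEL at an adjusted p under 0.05, where 10.4% of tested genes were. Against BJ, 4 of the 17 rose on the arrays labelled BJELM. There 11 were higher at an adjusted p under 0.05, where 15.1% of tested genes were.

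Apart from the checkpoint factors among the 37, none of 7 measured genes of an ATR checkpoint list rose or fell in either derived line, each against BJ. Of all tested genes 2.89% rose and 2.29% fell in BJEL, and 4.09% rose and 4.70% fell on the arrays labelled BJELM. With shares this low, 0 of 7 does not set the list apart from tested genes at large. Short of 2-fold, 3 of the 7 in BJEL, and 2 under the label BJELM, were higher at an adjusted p under 0.05, with medians of 0.39 and 0.18. The shares of tested genes higher at that threshold were 10.4% and 15.1%. None of the 10 genes of translesion synthesis and fork bypass rose or fell in BJEL, with a median of 0.31. There 4 were higher at an adjusted p under 0.05, against 10.4% of tested genes. On the arrays labelled BJELM the ubiquitin ligase SHPRH rose against BJ (1.15 ± 0.12, adjusted p = 0.00122). Of 10 other DNA polymerases, ligases and base excision repair genes 2 rose in BJEL, which were POLQ, the polymerase of end joining by microhomology (1.52 ± 0.19, adjusted p = 0.00438), and UNG, which removes uracil (1.03 ± 0.12, adjusted p = 0.00306). Against BJEL, 0 genes of these 5 lists rose or fell on the arrays labelled BJELM at the 2-fold minimum, where 0.923% of tested genes rose and 1.76% fell. At an adjusted p under 0.05, reached by 10.8% of tested genes, SHPRH (0.65 ± 0.12, adjusted p = 0.0229) and the mitochondrial polymerase POLG (0.43 ± 0.087, adjusted p = 0.0329) stood higher. The translesion polymerases POLH (-0.69 ± 0.14, adjusted p = 0.0338) and POLK (-0.56 ± 0.11, adjusted p = 0.0286) stood lower at that threshold. Of 11 measured control genes 0 rose or fell in BJEL, with a median of 0.33. Short of 2-fold, 3 of them were higher at an adjusted p under 0.05, where 10.4% of tested genes were. These were HPRT1 (0.90 ± 0.20, adjusted p = 0.0272), B2M (0.70 ± 0.14, adjusted p = 0.018) and TBP (0.58 ± 0.084, adjusted p = 0.00686). On the arrays labelled BJELM TFRC (1.12 ± 0.11, adjusted p = 0.00446) rose and B2M (-1.03 ± 0.14, adjusted p = 0.00891) fell, each against BJEL, and HPRT1 and TFRC rose against BJ.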

How the data were processed

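Total RNA of BJ, BJEL and BJELM cells was labelled and hybridised to Affymetrix Gene 1.0 ST arrays, 2 per line. The authors deposited log2 signals, made by RMA over the 6 arrays in 1 run of Expression Console 1.3.1, as the submitters' notes name it. RMA corrects background, brings the arrays to 1 distribution and summarizes each probe set, so a shift shared by all genes would not be seen, and precision is limited by the small number of arrays. Per the labels the replicates are biological, but how cultures were split is not given, so p-values measure only the spread between these arrays. No 2 arrays were identical.

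Of 33297 probe sets, 19460 carried 1 gene symbol, 1754 several, and 12083 were not listed in the table of the array's genes. Among single-symbol probe sets the brightest on average stood for its gene, which gave 18417 genes, of which 18389 matched RefSeq (GRCh38.p14) by Entrez ID. Group means were fitted with limma 3.58.1 in R 4.3.3 to all 6 arrays, with 3 residual and 3.13 prior degrees of freedom and two-sided moderated tests. A call needed a Benjamini-Hochberg adjusted p under 0.05 over all genes and a change of at least 2-fold, the fold taken from the study's methods. On simulated data of 18417 genes, a simulated log2 change of 2 was called in 90% of cases in BJEL against BJ, 90% in BJELM against BJEL and 99% in BJELM against BJ. Of genes changed by 1.2, 84%, 79% and 70% were called in the same order. The simulated design and spread were the same in every comparison, so differences between these percentages come from the random draw. The simulated noise was independent between arrays, whereas real arrays of the same replicate number deviated together, so these rates need not hold for the real data.

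The 37 genes, the other lists and the alternatives were chosen with earlier results of these data known. Every gene of the 37 is named. Signals on each array are given at least for the gene of each role with the largest difference in BJEL against BJ, for genes lower in a derived line at an adjusted p under 0.05, and for CLSPN, which has 2 probe sets. Of each other list up to 2 called genes with the largest change in BJEL against BJ are named, and further genes were named after their values were seen. GINS4, SHPRH, POLH, POLK, POLG, HPRT1, TBP, TFRC and B2M are such genes. Alternatives left out each array, fitted only the lines compared, added the replicate block, changed the normalization, variance model, gene filter, features, probe set or fold minimum, or used the methods' t-test in its plain form. Protein sequences were not used here. The study's chromatin and genotyping data were not analysed here. The labels and the methods give different doses of hygromycin and puromycin.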

Additional observations from a re-analysis of the deposited data

How the results depend on the processing

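Of the calls of single genes, BJEL against BJ kept its direction and its side of the threshold in 561 of the fits with an alternative, gained a call in 7 and lost one in 23. BJELM against BJ did so in 552, with 16 gained and 23 lost. For the 10 genes with an unadjusted p under 0.05 in BJELM against BJEL the 2-fold call stayed absent in all 160. No direction turned among these genes and alternatives. In many of them it could not turn. The replicate block, the variance model, the t-test, the fold minimum and leaving out an array of the third line all keep the same estimate. The 10 genes of BJELM against BJEL were also picked by p, which leaves out differences near 0. These counts are thus partly fixed in advance. With 1 array left out, the called genes numbered 22 to 27 in BJEL against BJ, 18 to 27 in BJELM against BJ and 0 to 0 in BJELM against BJEL. The median differences then ran from 1.11 to 1.35, from 0.98 to 1.35 and from -0.047 to 0.029 in the same order of comparisons. The methods' t-test for unequal variances, which takes the spread from 2 arrays per line, called 10 genes in BJEL against BJ (9 higher, 1 lower) and 7 in BJELM against BJ, all higher, so POLD4 was called by it in BJEL only. After Benjamini-Hochberg adjustment it called 0 of the 37 in either (lowest adjusted p 0.445 in BJEL against BJ and 0.337 in BJELM against BJ). Among all tested genes it called 231 higher and 234 lower in BJEL against BJ, against 533 and 421 by limma. In BJELM against BJEL the median difference was 0.037 after median centring and 0.057 after quantile normalization over genes, a sign opposite to that of -0.0044 without them, and it has no direction to report. With the replicate block the counts of called genes were 26, 0 and 23 for BJEL against BJ, BJELM against BJEL and BJELM against BJ, which are the counts without it. With no fold minimum, the block gave 34, 10 and 35 genes at an adjusted p under 0.05 in the same order (31.5%, 24.3% and 39.6% of tested genes), against 32, 0 and 33 without it (17.5%, 10.8% and 28.2%). In BJELM against BJEL, ASF1B passed that threshold without BJ replicate 1 or BJ replicate 2 and with only the lines compared, TIPIN without BJELM replicate 1, POLD1 without BJELM replicate 2, and POLD2 and RPA1 after quantile normalization, all short of 2-fold. Same-numbered arrays deviated together across genes (r of 0.55 between BJELM and BJEL, 0.48 between BJELM and BJ and 0.45 between BJEL and BJ), but with 2 numbers per line and no label of a shared batch the pairing is not part of the design. DSCC1 dropped out when only genes of at least median level were tested.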
